A study of Mus musculus with 6 samples.

Results

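Bronchoalveolar lavage (BAL) cells, which are washed out of the airspaces of the lung, were examined for the nuclear genes of oxidative phosphorylation. The members are the protein-coding genes on nuclear chromosomes that GENCODE M21 names as subunits of complexes I to V, from NADH dehydrogenase (Ndufa, Ndufb, Ndufc, Ndufs and Ndufv symbols) to ATP synthase (Atp5 symbols), without the assembly factors. The rule used symbols only and no measured value. It found 86 of the 48795 gene rows, spread over 18 autosomes and the X chromosome: 38 in complex I, 4 in complex II, 9 in complex III, 18 in complex IV and 17 in complex V. Of these, 81 of 86 had at least 10 counts in at least 3 libraries, as did 12627 genes in all.

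The RNA came from mice of the wild type, on the C57BL/6 background, that were 8 to 12 weeks of age. In the study, mice of both sexes received cadmium chloride at 100 ng/kg or saline through the trachea and were lavaged on day 7. The labels used here tie none of the 6 libraries to an exposure or a sex, and do not say which animal or how many animals each came from. No comparison of cadmium with saline was therefore possible, and each library is described by its own value under its title: CD170, CD171, CD174, CD176, CD177 and CD178. These titles are sample names and not surface antigens.

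Complexes I to IV pass electrons from NADH and succinate to oxygen and, apart from complex II, pump protons across the inner mitochondrial membrane. Complex V, the ATP synthase, lets the protons flow back and makes ATP. Most subunits are encoded in the nucleus and a few of the central ones by mitochondrial DNA, and alveolar macrophages, which live in the airspace and clear particles from it, are known for a high use of this pathway in handling surfactant lipid.

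The libraries held 7732244 (CD174) to 23599369 (CD178) gene counts. All 8 alveolar macrophage markers were present in each library and summed to 25163 (CD171) to 31598 (CD177) CPM (reads scaled to a common library size by TMM). CD174 and CD171 stood apart from the other 4 libraries. Reads in no annotated feature took 25.01% of the counts in CD174 and 16.6% in CD171, against 6.495 to 7.29% in the other 4. A list of 6 RNA quality transcripts, led by CT010467.1 and Lars2, summed in CD174 to 124357 CPM and in CD171 to 43262. The other 4 libraries were at 5726 to 11155. Not all of the list followed its sum: Neat1 was lowest in CD174, at 188 CPM, and Malat1 had a log2 range of 0.39. In CD174 all 6 alveolar type 2 cell markers were at their highest, with a sum of 2033 CPM against 61.0 to 371 elsewhere. The 5 airway markers summed there to 1459 against 223 to 507, though Foxj1 was highest in CD176 and Cyp2f2 in CD178. The neutrophil list summed to at most 13.8 CPM with Ly6g at 0 in all libraries, T cell markers to at most 9.23, B cell markers to at most 1.04 and dendritic cell markers to at most 5.17. The striated muscle list summed to at most 5.71 CPM, and red cell transcripts to 111 (CD177) to 2882 (CD170). The part of these markers and of RNA quality in the values below was not tested. In bulk RNA, fewer cells of a type and less RNA per cell cannot be told apart.

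Promoter windows from RefSeq (build GRCm38.p6), of 250 bases before to 50 after a start, were found for 67 of the 86 members by symbol. The bases upstream of the RefSeq start are shown for 5 subunits of ATP synthase on which the results turn: Atp5b and Atp5e, the members of complex V with the smallest and the largest difference between libraries, and Atp5g1, Atp5g2 and Atp5g3, which encode the same mature subunit c. Capitals mark matches, on either strand, to CATGCGC (bound by NRF1), CCGGAAG (ETS factors such as GABPA), AAGATGG (YY1), GGGCGG (Sp1) or AAGGTCA (ERR receptors). Each is written 5′ to 3′ on the gene's own strand.
Atp5b, chr10:128083057-128083306, plus strand: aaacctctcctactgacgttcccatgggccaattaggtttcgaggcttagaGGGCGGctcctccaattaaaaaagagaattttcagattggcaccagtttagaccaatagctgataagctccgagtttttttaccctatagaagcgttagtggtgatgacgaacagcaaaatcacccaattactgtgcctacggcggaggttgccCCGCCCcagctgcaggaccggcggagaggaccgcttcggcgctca
Atp5e, chr2:174464102-174464351, minus strand: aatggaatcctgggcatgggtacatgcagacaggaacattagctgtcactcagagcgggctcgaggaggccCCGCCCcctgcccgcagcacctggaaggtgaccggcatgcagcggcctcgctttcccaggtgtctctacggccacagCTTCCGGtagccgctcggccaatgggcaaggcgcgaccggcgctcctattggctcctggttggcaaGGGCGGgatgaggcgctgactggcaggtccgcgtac
Atp5g1, chr11:96075632-96075881, minus strand: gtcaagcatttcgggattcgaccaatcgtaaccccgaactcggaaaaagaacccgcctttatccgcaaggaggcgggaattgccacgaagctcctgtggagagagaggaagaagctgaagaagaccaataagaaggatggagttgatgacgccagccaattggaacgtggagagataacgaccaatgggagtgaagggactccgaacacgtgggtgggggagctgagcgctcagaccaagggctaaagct
Atp5g2, chr15:102671048-102671297, minus strand: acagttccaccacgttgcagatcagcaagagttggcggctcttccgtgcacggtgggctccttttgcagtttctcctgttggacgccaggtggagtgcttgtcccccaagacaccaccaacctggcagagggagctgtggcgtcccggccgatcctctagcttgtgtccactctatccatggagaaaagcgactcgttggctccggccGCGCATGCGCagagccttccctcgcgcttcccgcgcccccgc
Atp5g3, chr2:73911327-73911576, minus strand: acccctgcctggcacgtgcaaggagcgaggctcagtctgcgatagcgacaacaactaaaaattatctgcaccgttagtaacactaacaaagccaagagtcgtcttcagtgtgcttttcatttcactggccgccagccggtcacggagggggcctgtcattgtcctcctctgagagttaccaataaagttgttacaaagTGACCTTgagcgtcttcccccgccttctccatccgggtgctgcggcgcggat
The upstream stretch of Atp5b held 2 matches, both to the Sp1 motif. That of Atp5e held 3, to the Sp1 motif on each strand and to the ETS motif. The 3 subunit c genes differed: the capitals in Atp5g2 are the NRF1 motif read on both strands of 1 palindrome, those in Atp5g3 an ERR motif, and Atp5g1 held no match in this window.

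Over the whole windows, 19.4% of the 67 members held the NRF1 motif, against 4.41% of the 27025 genes in the promoter table. The ETS motif was in 23.9% of the members and 9.93% of all genes. The YY1 motif was in 14.9% against 7.28%, the ERR motif in 11.9% against 5.38%, and the Sp1 motif in 40.3% against 38.2%. Member windows also had more CG dinucleotides, with a median of 19 per 300-base window against 7 over all windows, and the part of CG content in these shares was not tested. A match is a stretch of letters and not a measured binding site.

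Together the members took 0.955% (CD170) to 1.28% (CD174) of the gene counts in a library. Their order was alike in all libraries: over the 81 members, Spearman's rho of CPM per kilobase between 2 libraries lay between 0.920 (CD171 and CD178) and 0.991 (CD176 and CD177) over 15 pairs. Values below are CPM in the order CD170, CD171, CD174, CD176, CD177 and CD178. Complex V held the largest sum and complex II the smallest, in every library. The summed CPM of complex I was 2366, 2790.0, 4173, 2592, 2317 and 2825. That of complex II was 779, 914, 843, 762, 682 and 770.0, and that of complex III was 981, 1088, 1316, 1077, 947 and 1176. Complex IV summed to 1676, 2171, 2943, 1930.5, 1661 and 2111. Complex V summed to 3603, 4554, 5433, 3880.2, 3490.1 and 3973. CD174 was highest for every complex but II, where CD171 was, and CD177 was lowest for all 5 under TMM scaling.

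**Figure D1:**
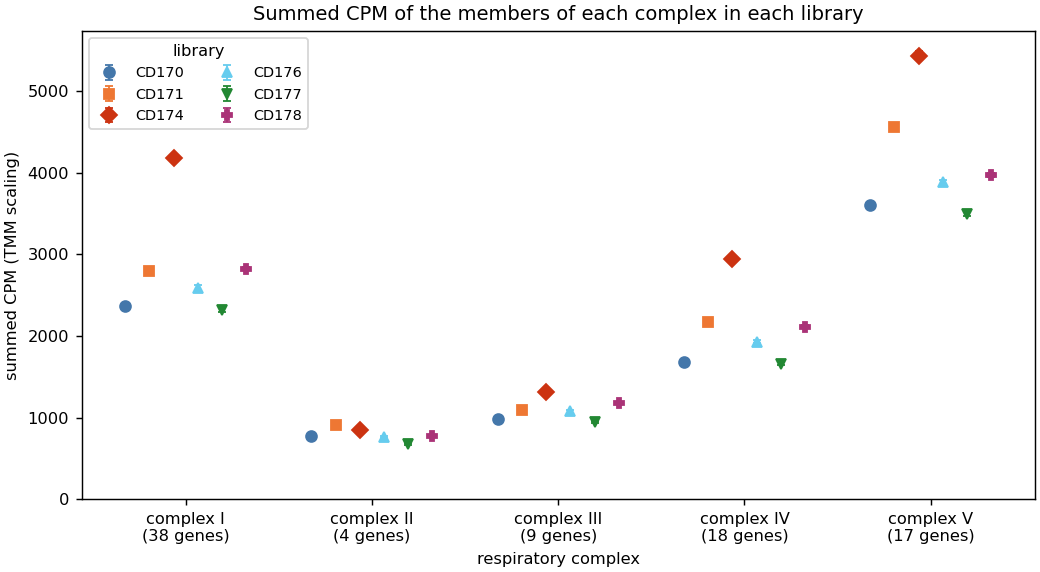
Summed CPM (y axis, from 0) of the members of each respiratory complex (x axis) in each of the 6 libraries. Bars are exact Poisson 95% intervals, which cover counting error only and are mostly smaller than the symbols. CD174 is at 4173 for complex I and the other libraries are between 2317 and 2825.

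The highest library exceeded the lowest 1.80-fold for complex I, 1.77-fold for IV, 1.56-fold for V, 1.39-fold for III and 1.34-fold for II. Over the 4 libraries other than CD171 and CD174 these ratios were 1.22, 1.27, 1.14, 1.24 and 1.14. Scaled by total counts instead of TMM, which lowers log2 values in CD174 by 0.20 for every gene, the ratio of complex III was 1.22 with CD178 highest and CD170 lowest. CD170 in place of CD177 was then also lowest for complexes I, IV and V, while CD177 stayed lowest for complex II.

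Gene by gene, the members had a median log2 range between libraries of 0.995, against 1.01 over all 12627 genes. A log2 range of 1 or more was reached by 40 of the 81 members (49.4%) and by 50.5% of all genes. This share is near the background. Members are abundant, and abundance matters for this measure: at a median of at least 50 CPM, a limit chosen after seeing the data, 28 of 65 members (43.1%) but 15.0% of 3799 genes had such a range. Length went with it too: of the 244 genes at that level whose principal transcript is under 1 kb, members among them, 114 (46.7%) did. That is near the share of the 65 members, which are of any length. The principal transcripts of all 81 members have a median of 861 bases. Of the 47 members under 1 kb, at any CPM, 29 (61.7%) had such a range, against 78.2% of all 1223 genes of that length. A range of at least 2 was found in 5 of 81 members, against 25.2% of all genes. Without CD174 alone, 18 of 81 members had a range of at least 1, against 31.96% of all genes. Without CD171 and CD174 it was 2 of 81 members (2.47%) that had a range of at least 1, Ndufb2 and Cox6a2, against 19.2% of all genes. For a range of at least 2 and for these smaller sets of libraries, no share of genes of at least 50 CPM was computed.

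CD174 was the highest library for 50 of 81 members (61.7%), against 29.9% of all genes. It was also highest for 169 of the 244 genes of at least 50 CPM with a principal transcript under 1 kb. That share is larger than among all 81 members, which are of any length. Of the 47 members under 1 kb, at any CPM, it was highest for 35, against 676 of all 1223 genes of that length. Over all 81 members, CD178 was highest for 18 (11.5% of all genes), CD171 for 11 (20.1%), CD170 for 1 (14.5%), CD176 for 1 (11.5%) and CD177 for 0 (12.5%). The lowest library was CD177 for 29 members (10.5% of all genes), CD170 for 23 (10.5%), CD171 for 21 (23.9%), CD174 for 6 (37.2%), and CD176 and CD178 for 1 each (8.81% and 9.12%). Among the 244 genes of at least 50 CPM and under 1 kb, CD177 was lowest for 95, CD170 for 68 and CD171 for 64. CD178 was highest for 42 of these 244 genes. Among the 4 libraries other than CD171 and CD174, CD178 was highest for 58 of 81 members (24.8% of all genes) and CD177 for 0 (22.5%). CD177 was lowest for 39 (22.5%) and CD170 for 32 (27.6%).

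The size of these differences differed between libraries. Relative to each gene's own median over the 6 libraries, the median member deviated by 0.50 on the log2 scale in CD174, against -0.06 for all genes. In CD178 it deviated by 0.10 against 0.01, in CD177 by -0.15 against 0.01, and in CD170 by -0.12 against 0.00. CD171 stood at 0.05 against -0.02 with members far on both sides, and CD176 at -0.001 against 0.006. The 244 genes of at least 50 CPM with a principal transcript under 1 kb, members among them, had medians other than those of all genes. They stood at 0.53 in CD174, 0.09 in CD178, -0.17 in CD177, -0.18 in CD170, 0.06 in CD171 and 0.009 in CD176. With total-count scaling the member median in CD174 was 0.27 against -0.28 for all genes, and CD174 was highest for 40 members (19.5% of all genes).

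**Figure D2:**
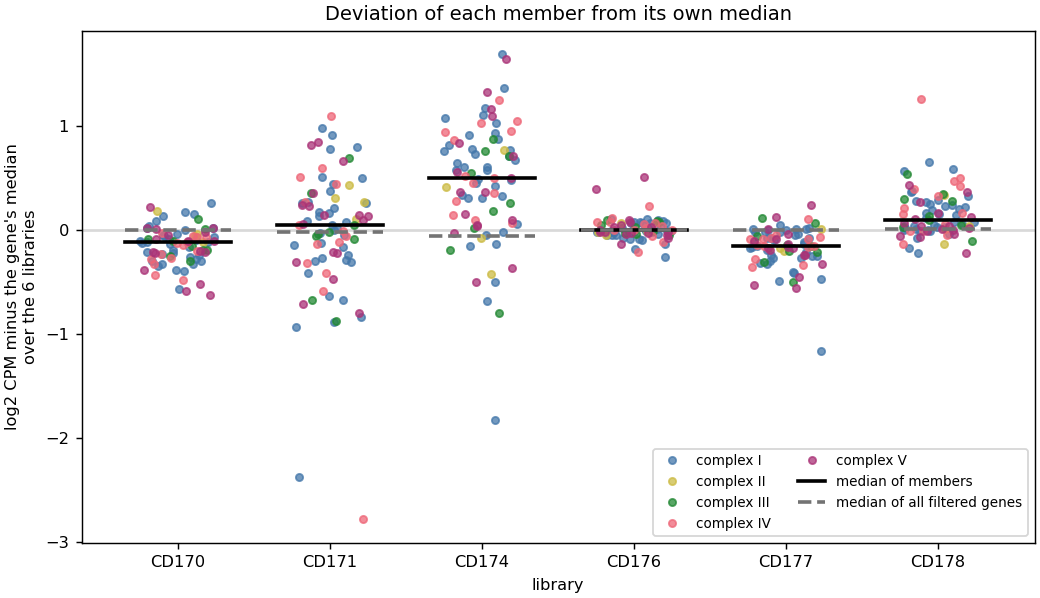
Log2 CPM of each of the 81 members minus its own median over the 6 libraries (y axis) in each library (x axis), coloured by complex. Solid lines are the member medians and dashed lines the medians of all 12627 genes; in CD174 they stand at 0.50 and -0.06.

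Short transcripts as a class stood high in CD174. The median principal transcript of the members was 861 bases, against 2831 over all genes. Members with a principal transcript under 1 kb deviated in CD174 by a median of 0.71 (47 members), those of 1 to 2 kb by 0.31 (26), those of 2 to 4 kb by 0.04 (6) and those of 4 kb or more by -0.49 (2). The last value is the midpoint of a pair that lay on opposite sides, Ndufb2 at -1.82 with 8 counts and Atp5g1, the longest, at 0.84. Over all genes of at least 50 CPM the same classes stood at 0.53 (244 genes), 0.15 (763), -0.04 (1518) and -0.17 (1273). Spearman's rho between transcript length and the deviation in CD174 was -0.447 over 81 members and -0.229 over 12627 genes, as a description across genes that share 1 library. In CD170 it had the opposite sign, 0.523 over members and 0.201 over all genes. The part of transcript length in the members' values was not tested.

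**Figure D3:**
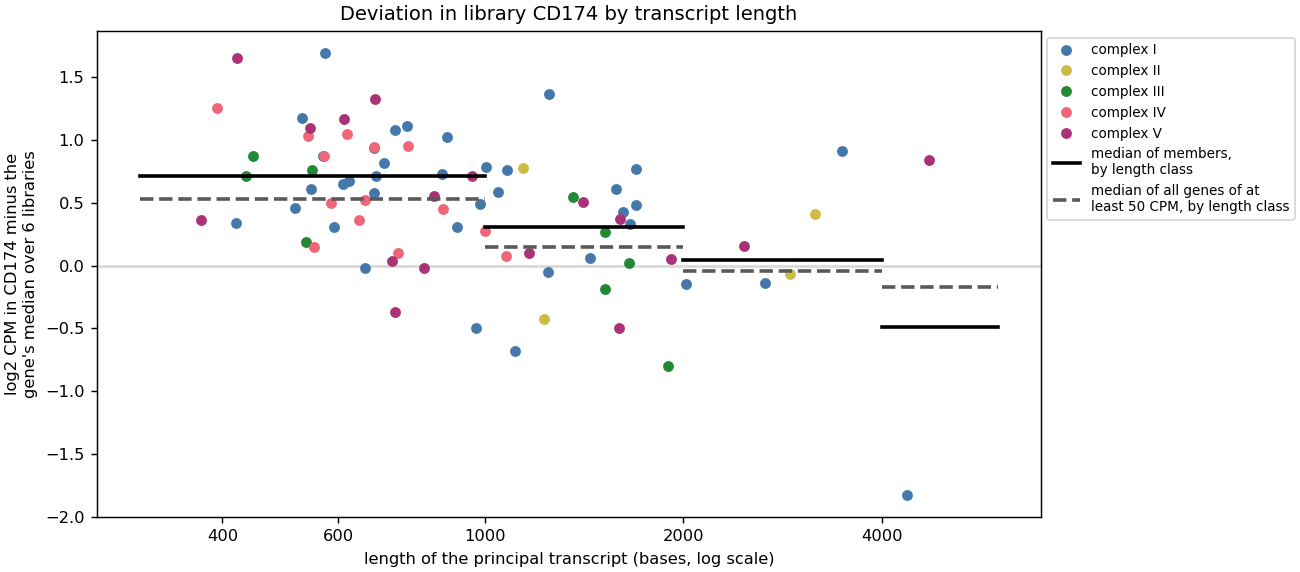
Deviation in CD174 from the gene's median (log2, y axis) against the length of the principal transcript (bases, log scale, x axis) for the 81 members. Lines give the medians by length class for the members (solid) and for all genes of at least 50 CPM (dashed), which under 1 kb are 0.71 and 0.53.

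Complex I, NADH dehydrogenase, is built of a core inherited from bacteria and many accessory subunits. Of its 38 genes 37 passed the count minimum, and 20 of 37 had a log2 range of 1 or more, against 50.5% of all genes. Not all 37 reached a median of 50 CPM. At that level the share was 15.0% of genes and 46.7% of those with a principal transcript under 1 kb. Core and accessory subunits did not differ between libraries by the same amount. The 7 nuclear core subunits summed to 709, 785, 1017, 706, 655 and 725 CPM, and the 30 accessory subunits that passed summed to 1657, 2005, 3156, 1886, 1662 and 2099.6. The core therefore made 24.4% of complex I counts in CD174 and 29.97% in CD170, with the other libraries between 25.7 and 28.3%. In CD174 the median deviation was 0.49 for the core and 0.63 for the accessory subunits. The median principal transcript was 1623 bases for the core and 747.5 for the accessory subunits. The part of length in these differences was not tested.

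Of the core, Ndufv1 binds NADH and the flavin that takes its electrons. It had 142, 163, 176, 138, 106 and 120.4 CPM. Ndufv2, which carries an iron-sulfur cluster beside it, had 108, 91.3, 193, 118, 107 and 130.1, with CD174 far above the rest and CD171 lowest. Ndufs1, the largest subunit and holder of several clusters, had 82.5, 92.1, 74.0, 76.2, 81.5 and 81.0. It was among the steadiest members of complex I, with a log2 range of 0.31, and CD174 was its lowest library. Ndufs7, beside the pocket where ubiquinone is reduced, had 61.1, 89.2, 92.3, 70.5, 59.1 and 58.5, with CD171 and CD174 highest and close together. Ndufs8, which passes electrons toward ubiquinone, had 73.2, 91.5, 152, 85.4, 80.5 and 92.0, where CD174 stood apart and the others lay between 73.2 and 92.0. Ndufs3, a scaffold of the peripheral arm, had 55.2, 81.1, 85.3, 56.8, 42.8 and 56.9. It is less certain than the rest, since only 60.3% of its 50-base stretches were unique among annotated transcripts.

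Among accessory subunits, levels per length can be set side by side. By CPM per kilobase of merged exons the highest medians were 177 for Ndufa2, 116 for Ndufa1 and 113 for Ndufc2. By principal transcript, a length chosen after seeing the data, Ndufa4 came highest at 254 per kilobase and Ndufa2 next at 177. Ndufa2, an accessory subunit of the peripheral arm, had 79.5, 174, 327, 100.0, 81.3 and 102 CPM. Its log2 range was 2.04, and CD174 and CD171 were the high libraries. Ndufa1, of the membrane arm, went the other way in CD171, with 45.6, 25.6, 61.8, 49.5, 48.1 and 63.3. Ndufc2, also of the membrane arm, had 69.1, 89.8, 139, 89.6, 74.5 and 80.5, with CD174 above the rest.

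The widest ranges in complex I belonged to 2 members with few reads. Ndufb4 had 9.44, 1.62, 6.25, 8.82, 8.98 and 14.1 CPM, a log2 range of 3.03 with CD171 lowest. Ndufb2 had 4.99, 6.48, 1.19, 4.12, 1.95 and 5.42, a log2 range of 2.33 with CD174 lowest. Both code for membrane-arm subunits that every complex I is known to hold, yet their medians were 8.90 and 4.55 CPM. Ndufb4 shares sequence with 3 annotated pseudogenes and is 63.0% unique. Ndufb2 overlaps other genes over 8.6% of a principal transcript of 4371 bases. Among the genes that share exonic sequence with Ndufb2 is Gm42420, a protein-coding gene on the same strand. The part of this overlap in the level of Ndufb2 was not tested. Ndufc1 was steady at 30.2, 39.9, 34.99, 34.0, 37.4 and 40.1, a log2 range of 0.41.

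Not all members were highest in CD174. Of the 37, 7 were highest in CD178 (11.5% of all genes), among them Ndufa9, Ndufa10, Ndufa12 and Ndufb6, and 4 in CD171 (20.1%). Ndufb7 had 77.3, 165, 151, 89.4, 67.4 and 100.1 CPM and Ndufb5 had 49.1, 100.0, 89.9, 51.3, 44.9 and 54.8, both with CD171 first and CD174 next. Ndufa5 had 29.98, 70.2, 72.2, 34.4, 25.5 and 36.3, where CD171 and CD174 were about the same and the other 4 lay between 25.5 and 36.3. In contrast, Ndufa12 had 33.0, 17.8, 17.1, 27.4, 27.8 and 41.6, with the same 2 libraries lowest. Ndufab1, the mitochondrial acyl carrier protein, had 18.4, 10.8, 37.8, 19.9, 20.1 and 22.3, with CD171 lowest and CD174 highest. The other 15 complex I members were all highest in CD174, with medians of 23.95 (Ndufs5) to 102 CPM (Ndufb10) and log2 ranges of 0.49 (Ndufa3) to 1.77 (Ndufs5). They were Ndufa3, Ndufa6, Ndufa7, Ndufa8, Ndufa11, Ndufa13, Ndufb3, Ndufb8, Ndufb9, Ndufb10, Ndufb11, Ndufs4, Ndufs5, Ndufs6 and Ndufv3. Ndufs4, an accessory subunit whose loss in mice is used as a model of Leigh syndrome, had 54.6, 48.1, 81.0, 61.3, 50.2 and 66.3 CPM. Ndufa13, also known as GRIM-19, had 82.1, 119.8, 237, 91.6, 76.4 and 92.2, and Ndufs5 had 26.5, 13.3, 45.7, 19.9, 21.9 and 26.0. Among these 15 the lowest library was CD170, CD177 or CD171.

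Ndufa4 carries a complex I name but is known as a subunit of complex IV. It had 134, 126, 243, 163, 147 and 200.3 CPM. Moving it changes little: complex IV with it summed to 1809, 2297, 3185, 2093, 1808 and 2311, a ratio of 1.76 between libraries. Its hypoxia-linked relative Ndufa4l2 had 0 counts in all 6 libraries, which allows up to 0.123 CPM in CD178 and 0.447 in CD174.

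Complex II, succinate dehydrogenase, is the only complex of the chain with no subunit from mitochondrial DNA. None of its 4 members had a log2 range of 1 or more, against 50.5% of all genes. All 4 had a median of at least 50 CPM, where the share was 15.0% of genes. Sdha, the flavoprotein that oxidizes succinate, had 368, 391, 308, 339, 281 and 294 CPM and a log2 range of 0.47. Sdhb, the iron-sulfur subunit, had 125, 175, 222, 128, 115 and 130.4. Sdhc and Sdhd anchor the complex in the membrane and bind heme; Sdhc had 140.3, 164, 202, 147, 135 and 157, and Sdhd had 146, 185, 111, 148, 151 and 189. The 4 subunits did not share an order. CD174 was highest for Sdhb and Sdhc but lowest for Sdhd and, with 308 CPM, below 3 others for Sdha. CD177 was lowest for Sdha, Sdhb and Sdhc. Per kilobase of merged exons the medians were 121 for Sdhd, 78.3 for Sdha, 57.8 for Sdhb and 46.7 for Sdhc.

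Complex III, cytochrome bc1, passes electrons from ubiquinol to cytochrome c. All 9 members passed and 5 had a log2 range of 1 or more, against 50.5% of all genes. All 9 had a median of at least 50 CPM. There the share was 15.0% of genes and 46.7% of those with a principal transcript under 1 kb. The electron carriers encoded in the nucleus are Cyc1, cytochrome c1, and Uqcrfs1, the Rieske iron-sulfur protein. Cyc1 had 86.3, 46.9, 75.2, 85.1, 90.0 and 109 CPM, with CD171 lowest and CD178 highest. Uqcrfs1 had 136, 152, 228, 159, 140.3 and 161, with CD174 above the rest. The core proteins Uqcrc1 and Uqcrc2 flank the matrix side of the complex. Uqcrc1 had 236, 216, 222, 214, 198 and 234 and a log2 range of 0.26, the smallest in complex III. Uqcrc2 had 118, 78.4, 71.6, 132, 135 and 152, with CD174 and CD171 lowest and no overlap with the other 4. It overlaps Pdzd9 over 26.6% of its principal transcript, where reads cannot be told apart without a strand setting.

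Per length, a pair of small subunits led complex III. Uqcrh, the hinge protein beside cytochrome c1, had 140.3, 278, 292, 185, 122 and 160.5 CPM and a median of 139.5 CPM per kilobase of merged exons. Uqcr10, a membrane subunit, had 62.8, 65.6, 114, 73.9, 56.2 and 86.0 and a median of 119 per kilobase. Uqcrb, which stabilizes cytochrome b, had 76.0, 105, 92.9, 79.6, 70.4 and 83.5 and was 56.6% unique. Uqcrh was high in CD171 and CD174, Uqcr10 in CD174. Uqcr11 and Uqcrq had medians of 68.9 and 78.5 CPM, with CD174 and CD178 highest in that order.

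**Figure D4:**
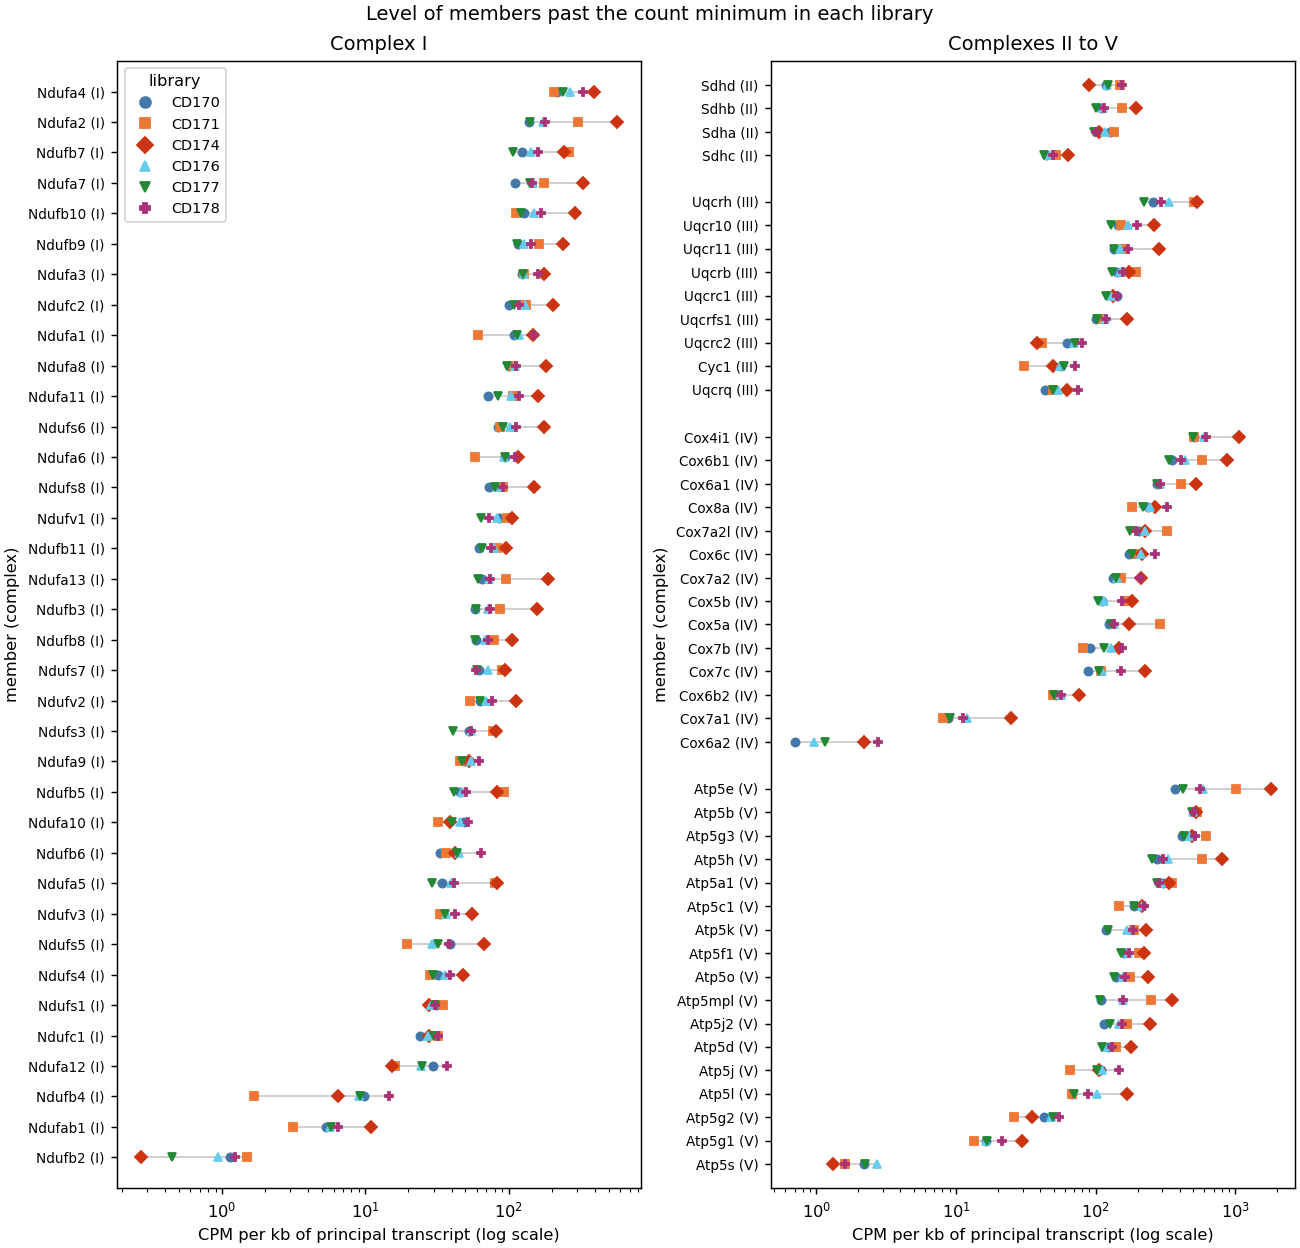
CPM per kilobase of principal transcript (x axis, log scale) of 80 of the 81 members (y axis) in each library, complex I on the left and complexes II to V on the right, ordered by median; a value of 0 is not drawn. Cox4i1 and Atp5e lead complexes IV and V, and Ndufb2, Cox6a2 and Atp5s are the lowest of their complexes.

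Complex IV, cytochrome c oxidase, hands the electrons to oxygen. Its catalytic core is encoded by mitochondrial DNA and the nuclear members surround it. Of 18 genes 14 passed, and 6 of 14 had a log2 range of 1 or more, against 50.5% of all genes. Not all 14 reached a median of 50 CPM. At that level the share was 15.0% of genes and 46.7% of those with a principal transcript under 1 kb. Cox4i1, the largest of the nuclear subunits, had 386, 389, 816, 456, 380.2 and 473 CPM. CD174 stood apart and the others lay between 380 and 473. Its principal transcript overlaps Emc8, on the other strand, over 20.1%. Cox5a had 80.8, 187, 112, 87.4, 83.3 and 87.1, with CD171 far above the rest, and Cox5b had 96.2, 139.8, 159, 100.1, 90.7 and 134. Cox5a overlaps the long noncoding Gm26631 over 41.7% and shares sequence with pseudogenes, so its level is uncertain. Cox6b1, on the side of cytochrome c, had 216, 355, 540.4, 269, 208 and 254 and the highest level per kilobase of merged exons in the complex, 369. Cox4i1 and Cox6a1 followed at 273 and 235. Cox6c was among the steadier members, with 128, 144, 159.8, 156, 134 and 196 and a log2 range of 0.62. Cox7c, a small membrane subunit, had a median of 59.5 CPM and was 47.0% unique. Cox7a2l, which joins complexes III and IV into supercomplexes, had 219, 348, 242, 241, 190.3 and 209.9, with CD171 highest.

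Several subunits of complex IV exist as a common form and a form made in few tissues, and lavage cells showed nearly only the common one with a pair of exceptions. Cox4i2, the form of lung and of oxygen-sensing cells, had 6, 11, 0, 0, 0 and 0 counts against 5037 to 11530 of Cox4i1. Cox8b, a muscle form, had 2 counts, in CD178, and Cox8c and Cox7b2, testis forms, had 0 throughout. Cox8a had 130.1, 99.6, 146, 134, 119.7 and 178 CPM and Cox7b 90.7, 81.2, 148, 129, 115 and 154. Cox6a2, a muscle form, had 9, 0, 10, 10, 16 and 46 counts. It made 0.300, 0, 0.492, 0.394, 0.497 and 1.14% of its pair with Cox6a1, which had 158, 235, 301, 165, 156 and 164 CPM. Its log2 range of 4.05 rests on the 0 in CD171 and depends on the prior count.

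The exceptions were Cox6b2 and Cox7a1. Cox6b2 (ENSMUSG00000051811, chr7:4751792-4753094 on GRCm38, minus strand) is known as the testis form of Cox6b1, yet it had 30.2, 28.9, 44.7, 33.2, 29.7 and 32.9 CPM, from 300 (CD174) to 802 (CD178) reads. It made 12.3, 7.51, 7.64, 11.00, 12.5 and 11.5% of the pair, with CD171 and CD174 below the other 4. All 50-base stretches of its principal transcript were unique among annotated transcripts, and no annotated exon of another gene overlapped it. Cox7a1, the muscle form, had 3.45, 3.17, 9.68, 4.70, 3.56 and 4.43 CPM and made 3.76, 3.05, 6.47, 4.77, 3.74 and 3.12% of the pair with Cox7a2, which had 88.2, 101, 139.8, 93.9, 91.6 and 138. The sums of the striated muscle list, at 1.38, 5.71, 5.66, 1.76, 0.537 and 1.93 CPM, were highest in CD171 and CD174, while Cox7a1 was highest in CD174 and lowest in CD171. Its counts were 65, 41, 65, 72, 73 and 108.

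**Figure D5:**
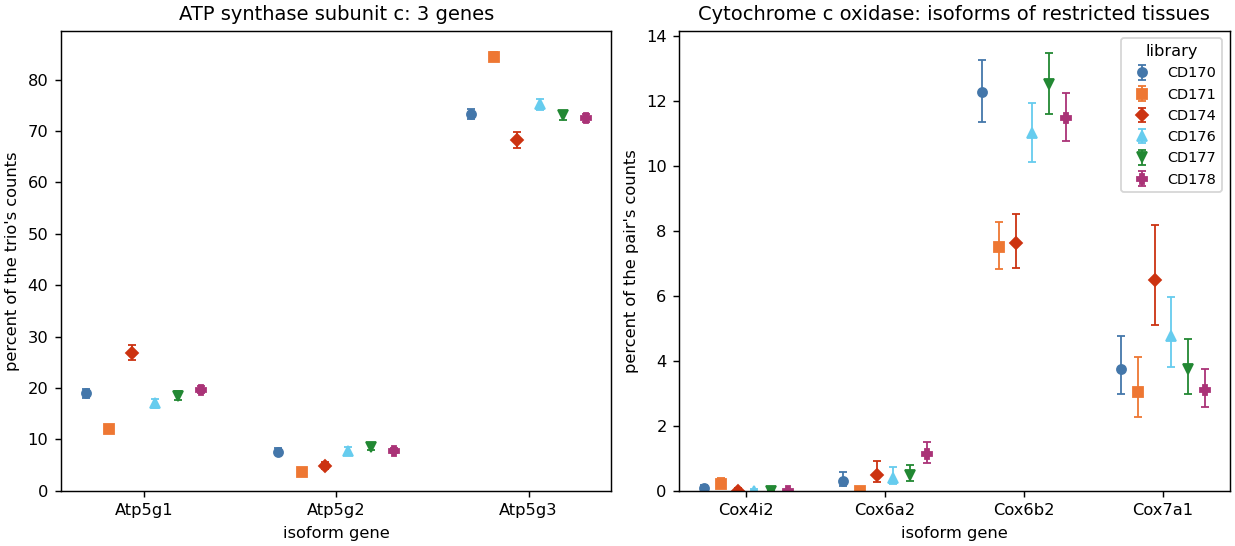
Percent of the counts of a pair or trio (y axis) taken by each isoform gene (x axis) in each library, with Wilson 95% intervals that cover counting error only. On the left the 3 genes of subunit c, with Atp5g3 at 68.3 to 84.5%; on the right 4 isoforms of cytochrome c oxidase known from few tissues, with Cox6b2 at 7.51 to 12.5%.

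Complex V, ATP synthase, has a catalytic head (F1) on the matrix side and a rotor and stalk in the membrane. All 17 genes passed, and 9 had a log2 range of 1 or more, against 50.5% of all genes. Not all 17 reached a median of 50 CPM. At that level the share was 15.0% of genes and 46.7% of those with a principal transcript under 1 kb. Atp5b (ENSMUSG00000025393, chr10:128083273-128090391, plus strand), the catalytic beta subunit, was the most abundant member by CPM, with 979.7, 1018, 1008, 961, 947 and 967. Its log2 range of 0.11 was the smallest of all 12627 genes under TMM scaling, while it ranked 13 from the smallest with DESeq2 size factors and 114 with total counts. Atp5a1, the alpha subunit, had 754, 874, 825, 729, 676 and 709, a log2 range of 0.37. Atp5c1, the gamma subunit that turns in the head, had 219, 170.2, 252, 252, 219 and 257, with CD171 lowest. Per kilobase of merged exons Atp5a1, Atp5b and Atp5g3 were highest, at 236.5, 229.7 and 159.7 CPM.

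The widest range in complex V was in the same head. Atp5e (ENSMUSG00000016252, chr2:174461072-174464105, minus strand), the epsilon subunit, had 157, 424, 758, 247, 177 and 235 CPM, a log2 range of 2.27. CD174 was highest, CD171 next, and the other 4 lay between 157 and 247, a log2 range of 0.65. Atp5d, the delta subunit, had a median of 179 CPM and a log2 range of 0.69. The 5 head subunits summed to 2283, 2683, 3096, 2352, 2175 and 2352 CPM, and made 57.0% (CD174) to 63.4% (CD170) of complex V counts. In CD174 the median deviation was 0.15 for the head and 0.46 for the other 12 members. The median principal transcript was 1410 bases for the head and 770 for the other members. The part of length in this difference was not tested.

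Of the membrane part, Atp5mpl, a small proteolipid, had 67.3, 153, 216, 96.2, 65.3 and 96.1 CPM, and Atp5h, a subunit of the stator stalk, had 188, 392, 545, 225, 173 and 209. Both had CD174 first, CD171 next and log2 ranges of 1.72 and 1.66. Atp5h is 52.1% unique, with 5 pseudogenes that share sequence. Atp5l, at a median of 42.9 CPM and a log2 range of 1.31, is 15.2% unique with 12 pseudogenes. Atp5o, which joins stalk and head, overlaps annotated genes over 48.6% of its principal transcript, among them a longer Atp5o model that has no row in the count table and was not analysed here. Atp5s, a coupling factor rather than a structural subunit, was the least abundant, at 2.09 (CD174) to 4.31 CPM (CD176). The remaining 6 members outside the head, Atp5f1, Atp5j, Atp5j2, Atp5k and the subunit c genes Atp5g1 and Atp5g2, had log2 ranges of 0.54 to 1.15.

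Subunit c forms the proton-carrying ring, and its 3 genes, whose upstream sequences are printed above, differ in their import signals. Atp5g3 had 300.4, 448, 358, 339, 312 and 374 CPM, Atp5g1 had 77.6, 63.2, 140.4, 76.8, 79.0 and 101 and Atp5g2 had 31.2, 19.0, 25.6, 35.01, 36.1 and 40.0. Atp5g3 thus made 73.4, 84.5, 68.3, 75.2, 73.0 and 72.6% of the trio's counts, and Atp5g1 made 19.0, 11.9, 26.8, 17.0, 18.5 and 19.6%. The balance was highest for Atp5g3 in CD171 and highest for Atp5g1 in CD174, and the other 4 libraries were close together. The share of Atp5g2, 7.62, 3.58, 4.89, 7.77, 8.46 and 7.76%, is uncertain, because 12.6% of its 50-base stretches were unique. Counts also scale with transcript length, and the principal transcript of Atp5g1 is 4715 bases against 723 for Atp5g3 and 731 for Atp5g2. That of Atp5g1 is also its longest annotated transcript, and which transcript was expressed was not measured.

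Copies and overlaps touched many members. In 17 of the 81 members under 80% of the 50-base stretches of the principal transcript were unique among annotated transcripts, and 25 overlapped an exon of another gene. The 17 had a median of 78.85 CPM per kilobase of principal transcript and the other 64 had 113. The 62 pseudogene rows that shared sequence with members summed to 20.4 (CD170) to 58.8 CPM (CD174). These rows had CD174 highest as the members did.

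The genes that build the complexes were described from a list of 47 assembly factors. Of these 43 passed, and 18 had a log2 range of 1 or more, where the background is 50.5%. In CD174 their median deviation was 0.07, against 0.50 for the members. Their median principal transcript was 1749 bases, against 861 for the members. In CD174 all genes of 1 to 2 kb stood at 0.08, and members of that length at 0.31. The part of length in this difference was not tested. The assembly factors with the widest ranges were Ndufaf3 and Cox11. Ndufaf3, a complex I factor, had 16.5, 22.0, 2.08, 15.3, 14.5 and 19.7 CPM, with CD174 lowest. Cox11, a copper carrier for complex IV, had 1.96, 11.1, 3.13, 1.44, 1.85 and 2.26, with CD171 highest. Of 5 carriers and inhibitors, 1 had a range of at least 1: Atpif1, the inhibitor of ATP synthase, had 24.6, 12.6, 45.1, 30.4, 24.1 and 36.6 CPM. Cycs, cytochrome c, had the next widest range, with 36.6, 41.5, 71.5, 38.9, 40.8 and 44.1.

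Of 10 regulators of these genes 9 passed, and 3 had a log2 range of 1 or more, against 50.5% of all genes. Ppargc1b, a coactivator of mitochondrial genes, had 6.10, 8.26, 23.2, 6.40, 4.88 and 6.49 CPM, with CD174 far above the rest. Tfb2m, a mitochondrial transcription factor, had 11.6, 4.09, 9.23, 11.3, 13.8 and 10.8 and was lowest in CD171. Lrpprc, which stabilizes mitochondrial mRNA, had 65.6, 101, 63.9, 49.4, 44.8 and 51.4 and was highest in CD171. Of the factors whose motifs were searched, the 4 on this list were present throughout: Nrf1 had 35.6, 29.2, 21.4, 26.5, 24.5 and 26.1 CPM, Gabpa 64.6, 44.9, 35.6, 63.3, 56.3 and 52.4, Yy1 67.9, 90.2, 106, 79.8, 75.8 and 65.1 and Esrra 56.4, 49.1, 66.1, 66.2, 65.7 and 61.1. Nrf1 and Gabpa were highest in CD170 and lowest in CD174. Gabpa shares exonic sequence with Atp5j on the other strand. Tfam had 39.5, 50.9, 47.2, 40.4, 35.4 and 40.8 and Polrmt, the mitochondrial RNA polymerase, had 25.4, 21.7, 13.1, 23.3, 19.96 and 18.2. Ppargc1a was near 0, with 0.212, 0, 0, 0.849, 0 and 0 CPM.

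The partner subunits encoded by mitochondrial DNA had their highest sum in another library than the nuclear ones. Of 13 genes 7 passed, and all 7 had a log2 range of 1 or more, against 50.5% of all genes. All 7 had a median of at least 50 CPM. There the share was 15.0% of genes and 46.7% of those with a principal transcript under 1 kb. The sum of the mitochondrial genes was 8500.5, 3811, 9366, 9846, 13987 and 14821 CPM, with CD178 highest and CD171 lowest. In CD177, where the nuclear members had their lowest sums under TMM scaling, this sum was 13987 CPM, the second highest. In CD174, the highest for nuclear members, it was 9366. Of the 7, mt-Nd6 alone was highest in CD174, at 548 CPM against 152 to 335 elsewhere. mt-Nd4 had the widest range, with 618, 75.3, 539, 604, 1000.4 and 1238 CPM, and mt-Nd5 the next, with 597, 201, 625, 691, 1108 and 1096. The other 6 genes, mt-Atp6, mt-Atp8, mt-Co2, mt-Co3, mt-Nd3 and mt-Nd4l, had 0 to 0.488 CPM in every library, next to 2188 to 6344 CPM of mt-Co1, so the sum describes only the 7.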

How the data were processed

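RNA of bronchoalveolar lavage cells was sequenced in 6 libraries. The authors deposited unnormalized read counts, in whole numbers, for each gene. The submitters' processing notes name GRCm38 as the build, HTSeq 0.11.2 and STAR 2.7.1a, and, for earlier steps, Trim Galore 0.6.2 and bcl2fastq 2.18.0.12. The strand setting and annotation release were not given in the sources used here. The 5 summary rows that name no gene took 18.8% (CD177) to 46.0% (CD174) of all counts, including 6.80 to 11.0% aligned in several places, and were left out of library sizes.

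Symbols, exons and principal transcripts came from GENCODE M21, in which 48435 of 48795 IDs matched. The principal transcript of a gene was the one with the best APPRIS tag in that annotation. Ties went to protein-coding transcripts and then to the longest. Of 87 member genes there, 86 have a row. Counts were scaled by TMM in edgeR 4.0.16 (R 4.3.3) to CPM and to log2 CPM with a prior count of 2, and a gene was kept where 3 or more libraries had 10 or more counts. Figures were drawn with matplotlib 3.10.9, and scipy 1.17.1, pandas 2.3.3 and numpy 2.4.6 under Python 3.11.15 served for the rest. Steps were tested on simulated data. No library has a group, so no test was run; values are given per library. Whether the libraries came from separate animals is not stated. Sequence shared with other genes was searched with 50-base stretches of annotated transcripts, since no genome sequence was used here. Motif windows were missing for 19 members, among them Atp5a1, Atp5f1, Atp5mpl, Atp5s, Cox4i1, Cox4i2, Cox6a2, Cox6c, Cox8c, Cyc1, Ndufa2, Ndufa4l2, Ndufb9, Ndufs1, Sdhc, Uqcrb, Uqcrc2 and Uqcrq.

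The members and gene lists were chosen with earlier results of these data known. Values in every library are given for the core catalytic subunits, the isoform pairs and, in each complex, the 3 members with the highest level per kilobase of merged exons, the 3 with the largest and the 2 with the smallest log2 range; of the other pathway genes, the 2 with the widest range in each class and the regulators. Other members named with values were chosen after their values were seen. A member that enters sums and counts is not reported here on its own. The alternatives comprised total counts, size factors of DESeq2 1.42.0, a prior of 0.5, no filter and scaling without 4 abundant transcripts. Others were members at least 80% unique over all their transcripts and without exon overlap, other lengths, and leaving out libraries. Intervals (95%) and the floor of 3 counts cover counting error only, because reads carry no molecular identifiers and copies of 1 molecule are counted apart.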

Additional observations from a re-analysis of the deposited data

Results flagged for a closer look

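Sets of 6 values were examined for 80 members past the count minimum, 10 sums and the members' median deviation, 91 in all. A library was marked when its gap to the nearest other library was too large a part of the range over the 6 libraries (Dixon's rule at 95%), which chance passes in about 1 of 20 sets. It was passed in 19, of which 17 had CD174 apart and 2 had CD171. The sets share libraries, and sums share members, so they are not independent.

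CD174 was apart for the summed CPM of complex I (4173, next 2825), of its core subunits (1017, next 785) and of its accessory subunits (3156, next 2099.6 in CD178). Among complex I members, CD174 was apart for Ndufa7 (174 CPM, next 92.7), Ndufa8 (157, next 96.5), Ndufa13 (237, next 119.8), Ndufb3 (120.2, next 66.5), Ndufb10 (214, next 123), Ndufc2 (139, next 89.8), Ndufs6 (101, next 64.5) and Ndufs8 (152, next 92.0). In the other complexes it was apart for Uqcr11 (126 CPM, next 75.9), Uqcrfs1 (228, next 161), Cox4i1 (816.5, next 473), Cox6b2 (44.7, next 33.2), Cox7a1 (9.68, next 4.70) and Atp5l (91.3, next 56.0). CD171 was apart for Cox5a (187 CPM, next 112) and Cox7a2l (348, next 242). In CD174 the sums of the RNA quality list and of the epithelial lists were also at their highest, though Neat1, Malat1, Foxj1 and Cyp2f2 were not. The part of these lists in the values above was not tested.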

How the results depend on the processing

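No paired analysis was possible because the labels put no library in a group and give no replicate numbers that libraries share. Of 165 alternative values, 146 moved by less than the spread between libraries, or by up to 1.5 times for a count. DESeq2 size factors, a prior count of 0.5, no filter and scaling without the 4 abundant transcripts moved none past that limit. Direction was not part of this rule. The members' median deviation in CD176, -0.001 in the main setting, was 0.008 with total counts and 0.058 without CD171 and CD174. Without CD171 alone, CD174 was the highest library for complex II.

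Total-count scaling moved the median deviation of the members in CD174 to 0.27, the ratio of the highest to the lowest library to 1.22 for complex III and 1.29 for complex V. One alternative kept only members at least 80% unique over all their annotated transcripts and with no exon overlap. It retained Atp5h and Ndufb4, whose principal transcripts are 52.1% and 63.0% unique. There, 23 of 50 members reached a log2 range of 1 and 32 of 50 were highest in CD174. Both changes follow from fewer members. Without CD171 and CD174, 2 members had a range of at least 1, the median range was 0.37, and the ratios were 1.22 (I), 1.14 (II), 1.27 (IV) and 1.14 (V). The median level per kilobase was 57.8 CPM with merged exons, 84.2 with the longest transcript and 111 with the principal transcript. The following were chosen after seeing the data: the principal transcript, the limit of 50 CPM, and every value for members highest in CD174.

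Leaving out each library in turn gave 18 to 40 members that reached a log2 range of 1, a median range of 0.62 to 0.99, 50 to 57 members highest in CD174, and a median deviation in CD174 of 0.46 to 0.585. The ratio between libraries was 1.22 to 1.82 for complex I, 1.20 to 1.355 for II, 1.24 to 1.40 for III, 1.32 to 1.79 for IV and 1.31 to 1.57 for V. The low ends came without CD174, except for complex II, where it came without CD177. The cause of these shifts was not tested. Depth limits members of few reads, such as Ndufb2 and Cox6a2, most in CD174.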
